A study of Mus musculus with 12 samples.

Results

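The 4 DMSO libraries of a series of 12 described the RNA of macrophages grown toward the alternatively activated (M2) state when no drug was present, only the solvent DMSO. They were chosen by their label, which gave DMSO as the treatment for 6 days, and no measured value entered the choice. The cells were bone marrow-derived macrophages (BMDMs), which grow out of mouse marrow when macrophage colony-stimulating factor (M-CSF) is supplied. They were wildtype by label and had been kept for 6 days in M-CSF and IL-4, each at 20 ng/ml, with IL-10 added at 10 ng/ml and all cytokines renewed at day 3. The study took marrow from mice 6 to 10 weeks old of either sex, and 4 donor mice were used, so the spread between the libraries covers donor, culture and library preparation together. Neither the strain nor the sex of each donor is given in the sources used here. As a model these are cultured cells that received all 3 cytokines at once, with no culture without IL-4 or IL-10 beside them, so a level cannot be assigned to any one of the cytokines. The remaining 8 libraries, 4 with olaparib and 4 with 1-methylnicotinamide (MNA), were not compared here.

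M-CSF keeps marrow progenitors on the macrophage path through its receptor Csf1r. IL-4 acts through its receptor chain Il4ra and the transcription factor STAT6 and turns on the genes by which alternative activation is recognised, among them the chitinase-like protein Chil3 (Ym1), the secreted resistin-like protein Retnla (Fizz1), the arginine-degrading enzyme Arg1 and the mannose receptor Mrc1. IL-10 acts through STAT3 and is known for restraining inflammatory genes. Macrophages are also professional degraders, rich in lysosomes and their cathepsin proteases.

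Reads counted per gene were measured, and a level is given as CPM, the counts of a gene per 1e+06 counted reads of its library, with the mean ± SD of the 4 libraries. Longer transcripts give more reads, so genes are compared with each other in TPM, which divides the counts by exon length before each library is scaled to the same sum. The libraries held 21146291 to 31446849 counts over 35275 listed genes, and DMSO1 was the shallowest. A gene is described as on when it reached 1 CPM (21.1 to 31.4 counts) in all 4 libraries, as high when it reached 100 CPM in all 4, and as at the floor when it had 3 counts or fewer in every library, which is at most 0.0954 to 0.142 CPM. By these definitions 10731 of the 35275 genes were on (30.4%), 1713 were high (4.86%) and 20072 were at the floor (56.9%), including 16455 without a single count. Of the 21397 protein-coding genes among them 10315 were on, 1700 were high and 8352 were at the floor. Counts of list members on are best read beside these. Another 15196 annotated genes, whose identifiers come after the last listed one, were not analysed here, so shares of all genes, ranks and CPM refer to the listed genes only. A library with fewer cells of a type and a library with less RNA per cell cannot be told apart in such bulk counts.

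The cells carried the given markers in every library. Chil3, whose product is a secreted lectin without chitinase activity, was counted at 30672, 35038, 49181 and 31145 CPM in DMSO1 to DMSO4 and was the gene with the most reads in each of the 4 libraries. DMSO3 stood highest and the other 3 lay close together, which gave a mean of 36509 ± 8671 CPM (SD, n = 4), 3.65% of all counts. Retnla reached 1147, 620, 999 and 773 CPM, Arg1 697, 441, 606 and 468 CPM, and Mrc1 736, 617, 802 and 549 CPM. DMSO2 was lowest for Retnla and Arg1 and DMSO4 for Mrc1, and no marker spanned more than 1.85-fold between its lowest and its highest library. Cd74, the invariant chain that escorts MHC class II molecules to the lysosome, stood at 1793, 998, 1428 and 1623 CPM, again lowest in DMSO2. Per length, Chil3 was first of all genes at 73204 ± 16858 TPM, Retnla 18th at 4831 ± 1244 TPM, Cd74 35th at 2849 ± 665 TPM, Arg1 156th at 812 ± 170 TPM and Mrc1 377th at 347 ± 55.2 TPM. A short messenger RNA such as Retnla, with 599 exon bases in the annotation, therefore ranked much higher per length than by its reads, where it was 112th.

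A handful of genes held much of the RNA. The 5 genes above 10000 CPM took 12.4% of all counts, the top 10 of each library took 15.3% to 17.7%, the top 100 took 31.8% to 33.3% and the top 1000 took 62.7% to 64.0%. Between 412 and 453 genes were enough to hold 50% of the counts, fewest in DMSO3, where Chil3 alone took 4.92%. Of the 20 leading genes, 17 were among the top 20 of every library, and 89 genes were among the top 100 of every library. Protein-coding genes held 98.3% ± 0.0611 of the counts (SD, n = 4).

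**Figure D1:**
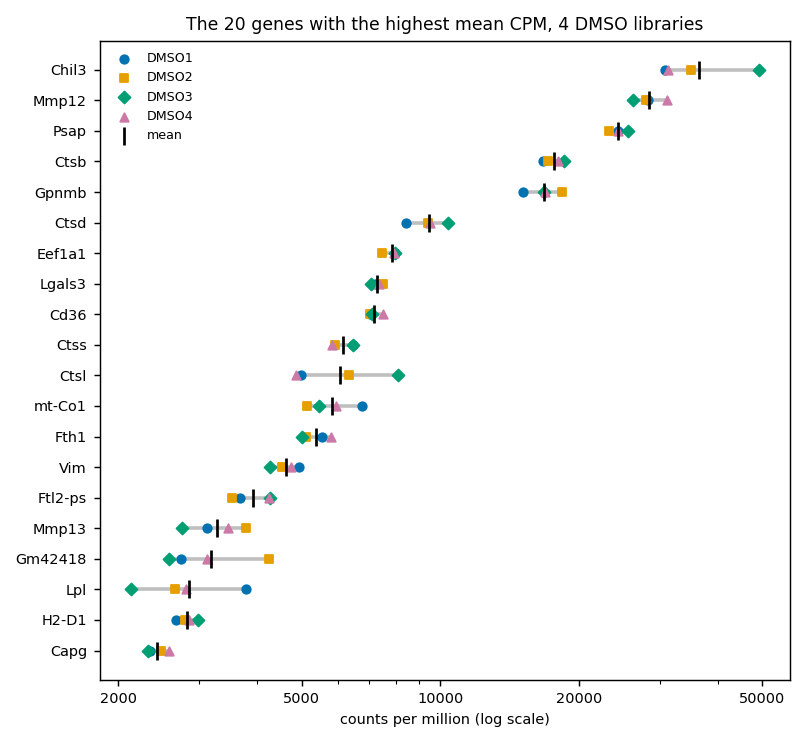
CPM (log scale) of the 20 genes with the highest mean, 1 row a gene; symbols are the 4 DMSO libraries, the black tick their mean and the grey line their range. Chil3 lies at 30672 to 49181 CPM with DMSO3 at the top, while Psap, Ctsb, Lgals3 and Cd36 show 4 symbols almost on top of each other.

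Of the 20 genes with the most reads 6 belonged to the lysosome or cathepsin lists. Mmp12, the macrophage elastase, had 28304, 27957, 26232 and 31079 CPM. Psap, the precursor of the saposins that help to break down sphingolipids, had 24337, 23263, 25525 and 24308 CPM and was second of all genes per length at 29075 ± 971 TPM. Gpnmb, a glycoprotein of lysosomes and melanosomes, reached 16797 ± 1335 CPM. These 3 genes thus kept their rank among the first 5 by CPM in all 4 libraries, with coefficients of variation (CV, the SD as a percent of the mean) of 3.79% (Psap) to 7.95% (Gpnmb), against 23.8% for Chil3. The cathepsins are the proteases that cut proteins inside lysosomes, and 4 of them stood among the 20 genes with the most reads, namely Ctsb at 17609 ± 842 CPM, Ctsd at 9432 ± 814 CPM, Ctss at 6162 ± 344 CPM and Ctsl at 6069 ± 1512 CPM. Ctsl was the uneven one, with 4976, 6342, 8100 and 4858 CPM, again with DMSO3 at the top. Per length Ctss led the group at 14857 ± 683 TPM, ahead of Ctsd at 13142 ± 1123 TPM, and it did so in each of the 4 libraries. Together the 40 genes of the lysosome and cathepsin lists held 10.4% ± 0.442 of the counts (SD, n = 4), from 9.91% in DMSO1 to 11.0% in DMSO3.

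The others of the 20 genes with the most reads included the fatty acid and oxidised lipoprotein receptor Cd36 (7169 ± 225 CPM), the galactose-binding lectin Lgals3 (7290 ± 178 CPM), the collagenase Mmp13 (3278 ± 452 CPM), lipoprotein lipase Lpl (2847 ± 692 CPM), the intermediate filament Vim (4618 ± 286 CPM), the actin-capping protein Capg (2431 ± 119 CPM) and the MHC class I heavy chain H2-D1 (2822 ± 130 CPM). Lpl was highest in DMSO1, at 3791 CPM, and lowest in DMSO3, at 2133 CPM. Translation was represented by the elongation factor Eef1a1 (7838 ± 246 CPM), and the 83 cytosolic ribosomal protein genes together held 3.13% ± 0.151 of the counts. By TPM 14 of these 20 genes remained in the first 20, and B2m, the light chain of MHC class I (5595 ± 452 TPM), Lyz2, lysozyme (4765 ± 1037 TPM), Ctsz, a carboxypeptidase cathepsin (5420 ± 119 TPM), Ftl1, the ferritin light chain (5665 ± 1244 TPM), mt-Cytb (4083 ± 638 TPM) and Retnla entered.

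Some of these levels depend on how reads that match several genes were treated. STAR counts only reads that map to 1 place, and the share of a gene's 31-base words that recur in another gene was taken as a measure of how much it can lose. That share was 0% for Psap, Ctss, Lgals3, Cd36 and Mmp13, 0.739% for Gpnmb and 6.59% for Mmp12, but 41.5% for Chil3, whose neighbour Chil4 holds 28.9% of its words. Among the other cathepsins it was 33.2% for Ctsd, 28.2% for Ctsl and 13% for Ctsb, so the order of Ctss and Ctsd per length is uncertain. The measure does not separate copies elsewhere from genes that overlap at the same place. For Ctsb 12.4% of the words were shared with Fdft1, which overlaps 12.8% of its exon bases on the opposite strand. Reads from that stretch can still map to 1 place. Ftl2-ps, a ferritin light chain pseudogene at rank 3 by TPM with 23322 ± 2283, shared 92.1% of its words with other genes, and Gm42418, at 2577 to 4255 CPM, shared 96.3%. The counts of Ftl1, of Ftl2-ps and of their relatives cannot be told apart with confidence, and together Fth1, Ftl1 and 3 such pseudogenes held 1.23% ± 0.0453 of the counts. Eef1a1 shared 51.5% of its words and Lyz2 32.8%. The ribosomal protein genes for which the share was taken ranged from 31.2% (Rpsa) to 76.9% (Rps3a1). Their counts, and the 3.13% held by all ribosomal protein genes, may therefore be too low.

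The IL-4 program was on almost throughout. Of its 33 listed genes 30 were on (90.9%, against 30.4% of all genes and 10315 of 21397 protein-coding genes) and 17 were high. Together they held 7.27% of the counts, of which Chil3 and Mmp12 made up most. Secreted members included, besides Chil3 and Retnla, the eosinophil attractant Ccl24 at 481, 350, 422 and 280 CPM and the Ccr4 ligand Ccl22 at 204, 135, 102 and 213 CPM. Ccl22 was high in DMSO1 and DMSO4 and low in the other two, while Ccl24 was lowest in DMSO4. Chil4, the close relative of Chil3, reached 103, 133, 218 and 129 CPM, with DMSO3 at the top as for Chil3. Receptors included the galactose-type lectin Mgl2 at 925, 482, 457 and 608 CPM and the CD300 family member Cd300ld at 554 ± 32.5 CPM. Mgl2 was highest in DMSO1 and spanned 2.02-fold. Metabolic members were the cationic amino acid carrier Slc7a2 (1616 ± 197 CPM), the protein cross-linking enzyme Tgm2 (683 ± 132 CPM) and Arg1.

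Among the transcription factors of the program Egr2 and Klf4 were the most even. Egr2, an IL-4-induced zinc finger factor, had 350, 324, 308 and 327 CPM, and Klf4, another such factor, had 147, 134, 128 and 134 CPM. Pparg, the nuclear receptor of lipid metabolism, was higher in DMSO3 at 266 CPM than in the others at 183 to 198 CPM. Irf4 stood at 143 ± 23.9 CPM. The 5 members at the low end were Ccl17, a second Ccr4 ligand, at 2.65 ± 0.882 CPM, the PD-1 ligand Pdcd1lg2 at 2.69 ± 1.33 CPM, and 3 genes that were not on, namely the lectin Cd209a (0 to 0.189 CPM), the lipoxygenase Alox15 (0.0349 to 0.191 CPM) and the matrix protein Matn2 (0.0349 to 0.357 CPM). Alternative activation genes therefore ranged from the first gene of the library to near the floor within the same cultures.

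**Figure D2:**
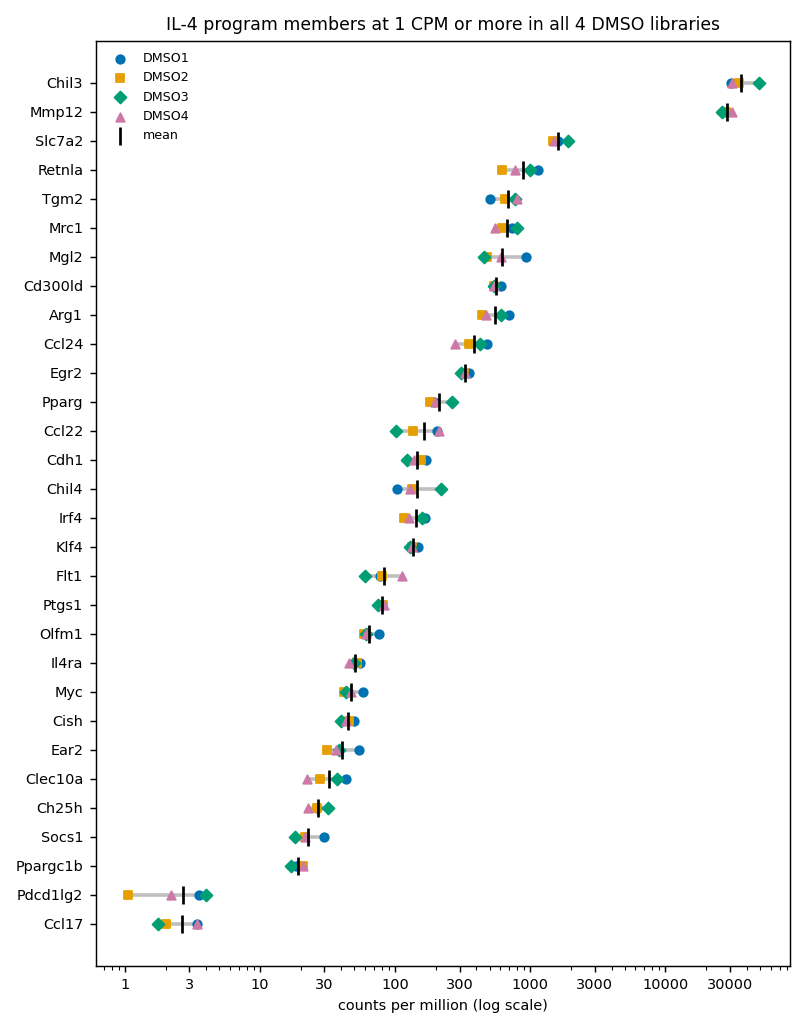
CPM (log scale) of the 30 IL-4 program genes that were on, ordered by mean; symbols are the 4 DMSO libraries, the black tick the mean and the grey line the range. Members run from Chil3 at 36509 CPM to Ccl17 at 2.65 CPM, and Mgl2, Ccl22, Chil4 and Pdcd1lg2 show the widest lines.

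The bases before the start of 4 of these genes are shown because they carry, or lack, the short palindromes that STAT factors are known to bind. RefSeq promoter windows (GRCm38.p6, 250 bases before to 50 after the start) were searched for TTC and GAA with 4 bases between them, the spacing typical of STAT6, and with 3 bases between them, the spacing typical of STAT3 and other STATs. The fixed letters of both read the same on either strand, so 1 search covers both strands, and a window can hold both spacings. Only the 250 bases before the start are printed, 5′ to 3′ on the gene's strand, with a match in capitals. Chil3 (chr3:106167565-106167814, minus strand) and Chil4 (chr3:106219480-106219729, minus strand) held the same match with 3 bases between, 172 and 200 bases before their starts, Retnla (chr16:48842359-48842608, plus strand) held a match with 4 bases between, 145 bases before its start, and Mrc1 (chr2:14229164-14229413, plus strand) held neither.
Chil3: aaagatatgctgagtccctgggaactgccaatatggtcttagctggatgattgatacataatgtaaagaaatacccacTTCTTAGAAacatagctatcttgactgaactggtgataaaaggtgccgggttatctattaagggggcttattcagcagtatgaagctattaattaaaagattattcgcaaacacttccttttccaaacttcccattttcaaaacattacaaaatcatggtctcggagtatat
Chil4: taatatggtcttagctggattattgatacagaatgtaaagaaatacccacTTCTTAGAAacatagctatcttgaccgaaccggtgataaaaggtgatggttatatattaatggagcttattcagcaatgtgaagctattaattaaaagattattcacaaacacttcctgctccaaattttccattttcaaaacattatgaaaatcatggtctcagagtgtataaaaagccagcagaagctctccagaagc
Retnla: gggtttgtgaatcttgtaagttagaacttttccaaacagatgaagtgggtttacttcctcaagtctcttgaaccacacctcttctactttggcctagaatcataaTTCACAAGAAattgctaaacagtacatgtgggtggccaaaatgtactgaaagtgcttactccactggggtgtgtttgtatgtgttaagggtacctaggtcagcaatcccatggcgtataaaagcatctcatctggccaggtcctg
Mrc1: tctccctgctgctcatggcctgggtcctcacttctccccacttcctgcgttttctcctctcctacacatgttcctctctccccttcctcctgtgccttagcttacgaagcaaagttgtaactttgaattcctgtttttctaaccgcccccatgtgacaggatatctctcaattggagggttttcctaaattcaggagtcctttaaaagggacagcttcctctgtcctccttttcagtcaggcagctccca
The Chil3 and Chil4 stretches shared a run of 44 bases. Over all 32851 windows the 4-base spacing occurred in 6.95% and the 3-base spacing in 8.30%. Of the IL-4 list, 23 genes had at least 1 window, 31 windows in all, of which 3 (9.68%) held the 4-base spacing, in Ccl17, Pdcd1lg2 and Retnla, and 4 (12.9%) the 3-base spacing, in Ccl17, Chil3, Chil4 and Cish. The genes with a match included both the most abundant member and the least abundant ones that were on. A match describes letters in the window and is not a bound site.

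The receiving side of all 3 cytokines was present. All 12 genes of the receptor and signalling list were on and 6 were high. The M-CSF receptor Csf1r had 610, 442, 549 and 463 CPM, and 15.1% of its exon bases lie opposite those of Hmgxb3, which reached 37.3 CPM. For IL-4, the receptor chain Il4ra stood at 50.7 ± 4.01 CPM, the common gamma chain Il2rg at 25.6 ± 5.94 CPM and Stat6 at 295 ± 9.63 CPM. For IL-10, the receptor chains Il10rb and Il10ra stood at 164 ± 8.77 and 41.7 ± 4.99 CPM, and Stat3 at 182 ± 17.4 CPM. Per length the kinase Jak1 (160 ± 5.84 TPM) and Stat6 (219 ± 7.15 TPM) exceeded Il4ra (27.7 ± 2.03 TPM) in every library. Il13ra1, the partner chain that lets Il4ra also read IL-13, was on at 6.06 ± 0.578 CPM.

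Genes known to follow IL-10 were on in part, 10 of 14, and 3 were high. Those with the highest level per length were the TNF receptor Tnfrsf1b (185 ± 17.7 TPM), the repressor Etv3 (136 ± 18.4 TPM), the repressor Nfil3 (97.5 ± 4.80 TPM) and Stat3 itself. The feedback inhibitor Socs3 stood at 15.9 ± 3.48 CPM and the IL-1 receptor antagonist Il1rn at 65.5, 43.3, 41.9 and 47.1 CPM, highest in DMSO1. The haemoglobin scavenger receptor Cd163, often used as a mark of IL-10-treated macrophages, did not reach 1 CPM in all libraries, with 1.09, 0.838, 0.811 and 0.986 CPM. Il10 itself was at the floor, with 0, 1, 0 and 1 counts.

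Core macrophage genes were on, with a few exceptions. Of 25 listed, 22 were on and 17 high. Per length the group was led by Lgals3 (12856 ± 423 TPM), Lyz2 (4765 ± 1037 TPM), the lysosomal glycoprotein Cd68 (3193 ± 245 TPM), the signalling adaptor Tyrobp (1199 ± 163 TPM), the don't-eat-me receptor Sirpa (921 ± 32.5 TPM) and the Fc receptor gamma chain Fcer1g (728 ± 61.5 TPM). The lineage factors Spi1 (PU.1), at 414 ± 29.8 CPM, and Cebpa, at 375 ± 15.3 CPM, varied by less than 8% (CV). Adgre1, which encodes F4/80, stood at 241, 167, 187 and 169 CPM, and Cd47, the ligand of Sirpa, at 296 ± 30.0 CPM. DMSO1 was highest for Adgre1, by more than the range of the other 3. The costimulatory ligand Cd86, a usual mark of classical activation, was low at 4.63, 3.04, 3.96 and 2.51 CPM. Aif1 (Iba1), an actin-binding protein, at 0.619 ± 0.153 CPM, and the antibody receptor Fcgr1 were not on, and the fractalkine receptor Cx3cr1 was at the floor with 1, 3, 2 and 0 counts.

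Both arms of antigen presentation were seen, unevenly for class II. All 16 class I genes were on, among them B2m (1407, 1343, 1537 and 1588 CPM), H2-D1, and H2-K1 (518, 541, 700 and 632 CPM). For class II, 10 of 13 were on. Cd74 (2849 ± 665 TPM), the protease Ctss and the thiol reductase Ifi30 (2398 ± 146 TPM) were far above the class II chains themselves, of which H2-Ab1 had 88.4, 55.5, 107 and 98.8 CPM, H2-Aa 27.7, 15.1, 24.0 and 26.7 CPM, and H2-Eb1 1.32, 1.85, 3.70 and 3.31 CPM. Cd74, H2-Ab1 and H2-Aa were each lowest in DMSO2, whereas H2-Eb1 was lowest in DMSO1. Per length Cd74 exceeded H2-Ab1 (111 ± 28.6 TPM) and H2-Aa (20.2 ± 4.92 TPM) in every library. The class II transactivator Ciita was on at 6.77 ± 1.45 CPM. Of the checkpoint ligands, Cd274 (PD-L1) at 206, 228, 325 and 207 CPM and Vsir (VISTA) at 252 ± 31.8 CPM were high, Cd274 highest in DMSO3, and Cd70 had no counts.

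Of the 28 genes of the classical program, that of LPS and interferon-gamma, 8 were on (28.6%, against 30.4% of all genes). Of them 1 was high, and 9 of the 28 were at the floor, where 56.9% of all genes were. Of the 21397 protein-coding genes 10315 were on, a larger share than in this list, and 8352 were at the floor. The high one was Slc7a11, the cystine carrier, at 143 ± 9.80 CPM, which also belongs to the antioxidant genes. Nos2, the inducible NO synthase, was on at 12.7, 19.8, 22 and 20.8 CPM, lowest in DMSO1, and Tnf at 16.9 ± 2.15 CPM. Il1b had 8, 3, 8 and 1 counts and Il6 had 3, 0, 8 and 0 counts. The interleukin subunits Il12a, Il12b and Il23a, the interferon Ifnb1 and the chemokines Cxcl9, Cxcl10 and Cxcl11 were among the genes at the floor. Arg1 exceeded Nos2 per length in each library, with means of 812 ± 170 and 14 ± 3.14 TPM. Interferon-stimulated genes formed a low layer: 28 of 34 were on but none was high, the highest per length being Bst2 (tetherin, 133 ± 13 TPM), Oas1a (an antiviral synthetase, 84.7 ± 11.7 TPM) and the GTPase Gbp2 (52.7 ± 6.68 TPM). Oas1a shares 68.8% of its words with its relatives, so its share of their reads is uncertain.

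**Figure D3:**
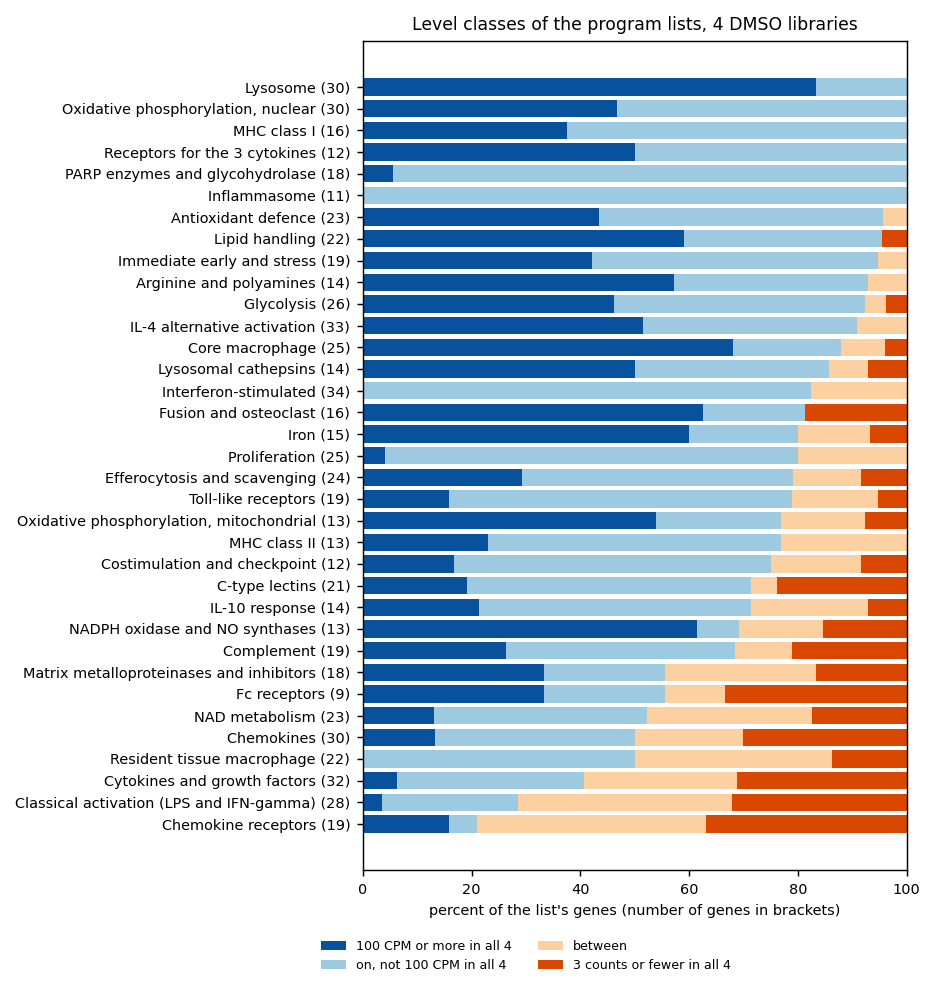
Percent of the genes of each of 35 program lists in 4 level classes over the 4 DMSO libraries, with the number of genes in brackets: 100 CPM or more in all 4, on below that, between on and the floor, and 3 counts or fewer in all 4. Lysosome, nuclear oxidative phosphorylation, MHC class I, cytokine receptor, PARP and inflammasome lists are fully on, while chemokine receptors (4 of 19 on) and classical activation (8 of 28 on) stand at the bottom.

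Of 30 chemokines 15 were on (50%, against 30.4% of all genes) and 9 were at the floor. This is near the share of protein-coding genes on, 10315 of 21397. Ccl6 (1298, 838, 1208 and 753 CPM) and Ccl9 (659, 345, 358 and 327 CPM), a pair of related CC chemokines of macrophages, were the highest by reads, followed by Ccl24 and Ccl22. The monocyte attractants Ccl2 (12.2, 4.71, 4.54 and 3.98 CPM) and Ccl7 (17.7, 6.04, 9.21 and 7.98 CPM) were low. Ccl9, Ccl2 and Ccl7 were all highest in DMSO1, apart from the other 3 libraries. Of 19 chemokine receptors 4 were on, among them Cxcr4 (308 ± 47.3 TPM), Ccr1 (295 ± 11.6 TPM) and Xcr1 (1.32 ± 0.307 TPM), 7 were at the floor, and Ccr2, the receptor that calls monocytes from the blood, had 0.331, 0.314, 0.162 and 0.127 CPM. Of 32 cytokines and growth factors 13 were on (40.6%), a smaller share than of protein-coding genes (10315 of 21397), and 10 were at the floor. The list was led by Igf1, insulin-like growth factor (603, 528, 603 and 533 CPM), and Tgfb1 (353 ± 16.3 CPM). Il4, whose protein was supplied from outside, was itself counted at 1.14, 0.943, 1.56 and 1.46 CPM, close to the limit of 1 CPM.

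Recognition and uptake genes were on in most of their lists. Of 24 efferocytosis and scavenging genes 19 were on, led per length by Cd36 (6543 ± 263 TPM), the integrin chain Itgb3 (530 ± 72.4 TPM), the endocytic receptor Lrp1 (377 ± 64.1 TPM) and the bridging protein Mfge8 (200 ± 16.1 TPM), while the phosphatidylserine receptor Timd4 was at the floor. Of 19 complement genes 13 were on: the integrins Itgb2 (2297 ± 142 CPM) and Itgax (1651 ± 129 CPM) and the anaphylatoxin receptor C3ar1 (523 ± 25.1 CPM) were high, and the C1q chains C1qa, C1qb and C1qc stood at 18.7 ± 2.72, 88.0 ± 8.57 and 43.6 ± 5.87 CPM. Of the receptors that bind antibody, Fcgr3 (541 ± 23.8 TPM) and the inhibitory Fcgr2b (194 ± 27.1 TPM) were highest per length, whereas the high-affinity receptor Fcgr1 was not on at 0.911 ± 0.314 CPM. Of 19 Toll-like receptor genes 15 were on, with the transporter Unc93b1 (413 ± 30.5 TPM) and Tlr13 (104 ± 6.86 TPM), which reads bacterial ribosomal RNA, at the top, and the flagellin receptor Tlr5 without a count. All 11 inflammasome genes were on and none was high, Casp1 being highest per length at 143 ± 2.42 TPM and Nlrp3 low at 5.83 ± 1.54 CPM. The phagocyte oxidase was complete, with Cyba (3641 ± 169 TPM), Ncf4 (495 ± 12.3 TPM) and Cybb (292 ± 26.9 TPM) on in every library, and the sister oxidase Nox4 had no counts. Of 21 C-type lectins 15 were on, led per length by Mgl2 (967 ± 333 TPM), the beta-glucan receptor Clec7a (330 ± 49.3 CPM) and Mrc1.

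The degrading machinery was uniformly on. All 30 lysosome genes were on and 25 were high, and of 14 cathepsins 12 were on, the exceptions being the lymphocyte and neutrophil cathepsins Ctsw and Ctsg. Besides Psap, Ctsd, Ctsb and Gpnmb, the membrane protein Lamp1 (2263 ± 58.9 CPM), progranulin Grn (2024 ± 119 CPM), the protease inhibitor Cst3 (1083 ± 11.0 CPM) and the acid lipase Lipa (2119 ± 133 CPM) were high. Cst3 varied by only 1.01% (CV) between the libraries. Of 18 matrix metalloproteinase and inhibitor genes 10 were on, beside 10315 of 21397 protein-coding genes. Per length Mmp12 (12859 ± 1033 TPM), Mmp13 (4021 ± 584 TPM) and the sheddase Adam8 (1295 ± 136 TPM) led, while Mmp3, Mmp7 and the inhibitor Timp4 were at the floor. Genes of macrophage fusion and of osteoclasts were also on, 13 of 16, with the proton pump subunit Atp6v0d2 (2236 ± 114 TPM), the collagen-degrading cathepsin Ctsk (712 ± 92.0 TPM) and the acid phosphatase Acp5 (560 ± 62.2 TPM) leading, and the fusion proteins Dcstamp at 285, 167, 126 and 198 CPM and Ocstamp at 246, 154, 112 and 206 CPM. Both fusion genes took the same order over the libraries, DMSO1 highest and DMSO3 lowest. The osteoclast genes Oscar, Tnfsf11 and Calcr were at the floor.

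Lipid and iron genes were on in most of their lists. Of 22 lipid genes 21 were on, with Cd36, the lipid droplet protein Plin2 (1457 ± 193 TPM), the phospholipid transfer protein Pltp (1338 ± 171 TPM, 19.3% of it opposite Ctsa) and Lipa (1024 ± 64.5 TPM) at the top per length. The cholesterol exporters Abcg1 (736 ± 72.5 CPM) and Abca1 (279, 385, 509 and 307 CPM) were high, whereas the apolipoprotein Apoe was modest at 48.1, 59.3, 84.9 and 44.1 CPM. Abca1 and Apoe were both highest in DMSO3. Apoc2 had no counts, but it shares 78.8% of its words with the annotated gene Gm44805, which covers it. Of 15 iron genes 12 were on, led by the ferritins Ftl1 and Fth1 (5069 ± 382 TPM) and the haem-degrading enzyme Hmox1 (705 ± 52.5 TPM), and the iron exporter Slc40a1 was low at 3.40, 1.71, 1.62 and 1.81 CPM.

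Energy and redox genes were on nearly throughout. All 30 nuclear genes of oxidative phosphorylation were on, led per length by the ATP synthase subunit Atp5a1 (941 ± 48.5 TPM) and the cytochrome oxidase subunit Cox8a (912 ± 85.0 TPM). So were 24 of 26 glycolysis genes, led by Aldoa (1912 ± 124 TPM), Gapdh (1262 ± 146 TPM) and Pkm (1208 ± 114 TPM). Of their words 17% (Aldoa), 28.1% (Gapdh) and 34.7% (Pkm) recur in other genes, so the order of Gapdh and Pkm is uncertain. Of 13 mitochondrially encoded genes 7 were high, led by mt-Co1 at 6771, 5149, 5462 and 5930 CPM. mt-Co2, which encodes another subunit of the same enzyme, had only 14, 10.3, 9.86 and 9.51 CPM. All of its words recur in another annotated gene, against 63.9% for mt-Co1, so the low value of mt-Co2 is not a measure of its RNA. Of 23 antioxidant genes 22 were on, led by Gpx1 (3029 ± 330 TPM) and Prdx1 (1841 ± 289 TPM), and of 19 immediate early and stress genes 18 were on, led by the stress factor Atf3 (1363, 1446, 1477 and 1486 CPM), Jun (628 ± 46.4 CPM) and the chaperone Hspa5 (767 ± 107 CPM). Of 14 arginine and polyamine genes 13 were on, among them the creatine kinase Ckb (1793 ± 370 CPM), Slc7a2, Arg1 and the polyamine acetylase Sat1 (288 ± 16.9 CPM), and Arg2, the mitochondrial arginase, was not, at 0.610 ± 0.195 CPM.

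The enzymes that the study's compounds concern were on for olaparib and without a count for MNA. The study describes olaparib as acting mainly on the poly(ADP-ribose) polymerase PARP1, also on PARP2 and more weakly on other PARPs. All 18 genes of the list of PARP family members and glycohydrolases, which reaches beyond these main targets, were on. Their median CV was 7.12%, against 7.82% over all genes on. Parp1 had 64.4, 62.0, 54.7 and 59.4 CPM and Parp2 26.2, 24.1, 25 and 25.2 CPM, with no library far from the others. Per length the family was led by Tiparp (60.1 ± 6.42 TPM) and the tankyrase Tnks2 (45.7 ± 1.40 TPM), ahead of Parp1 (37.2 ± 2.65 TPM). Nnmt, the enzyme that makes MNA from nicotinamide, had 0 counts in each of the 4 libraries, which allows at most 0.142 CPM in the shallowest by the limit of 3 counts. Of 23 NAD genes 12 were on, near the share of protein-coding genes on (10315 of 21397). They were led by the NAD kinase Nadk (162 ± 10.8 TPM), Nampt, which makes NAD from nicotinamide (99.1 ± 8.23 TPM), and the deacetylase Sirt2 (73.5 ± 2.56 TPM). Nmnat2, Nmrk2 and Qprt shared the floor with Nnmt. Intervals and limits of this kind cover counting error only.

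Proliferation genes were on but low. Of 25 listed 20 were on and only Pcna, the replication clamp, was high, at 247, 223, 207 and 220 CPM. The mitotic antigen Mki67 had 15, 9.25, 5.32 and 11.1 CPM and the nucleotide reductase subunit Rrm2 9.55, 4.12, 2.30 and 7.6 CPM. Both were highest in DMSO1 and lowest in DMSO3, and of the 20 genes on 14 were highest in DMSO1 and 18 lowest in DMSO3, as were 29.5% and 36.5% of all genes on. Genes of resident tissue macrophages were split, 11 of 22 on and none high, near the share of protein-coding genes on (10315 of 21397). The selenium carrier Selenop (77.5 ± 10.1 CPM) and Cd5l (22.8, 9.81, 12.8 and 13.1 CPM) were on, as was the peritoneal factor Gata6 at 5.59 ± 0.802 CPM. The Kupffer cell lectin Clec4f and the microglial factor Sall1 had no counts.

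By summed level markers of other marrow cells were scarce, with 2 exceptions in which a single gene held most of the sum. The lists for erythroid, megakaryocyte and stromal cells had no gene on, and summed to 0.159 to 4.45, 1.24 to 2.03 and 0.876 to 2.07 CPM. Eosinophil, basophil and mast cell, and B cell lists had 1 gene on each (Siglecf at 4.75 ± 1.48, Gata2 at 6.27 ± 1.40 and Ighm at 1.64 ± 0.228 CPM), and the T and NK cell list had 2 (Lck and Klrb1c), with the defining Cd3e at the floor. The neutrophil list had 3 of 14 on, among them Csf3r at a mean of 9.32 CPM and Mmp8 at 6.18 CPM. It summed to 31, 14.3, 20.1 and 12.8 CPM in DMSO1 to DMSO4, with Ly6g without a count and Elane and Mpo at the floor. S100a9, a granulocyte calcium-binding protein, had 2.41 CPM in DMSO1 and at most 0.0649 CPM in the others, and the haemoglobin chain Hba-a1 had 57, 0, 3 and 0 counts. The endothelial list summed to 1002 ± 76.0 CPM, but 992 ± 73.6 CPM of that was Vwf, von Willebrand factor, at 901, 971, 1072 and 1026 CPM, while its list mates Kdr, Cdh5 and Tie1 were at 6.31 CPM or below on average and Emcn had no count. The dendritic cell list summed to 1687 ± 131 CPM, of which Itgax (CD11c) made up 97.9%, and Flt3, Clec9a and Siglech were at the floor. Of the 6 endothelial genes 3 were on, and of the 11 dendritic cell genes 4, the others being Batf3 (16.5 ± 2.61 CPM), Zbtb46 (16.4 ± 1.36 CPM) and Xcr1.

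The libraries resembled each other closely. Over the 9690 genes that averaged 100 counts or more, the median CV was 7.23%, the middle 50% of genes lay between 4.73% and 11.1%, and counting alone would give a median of 3.28%. The highest of 4 libraries was at least 2-fold above the lowest for 173 genes (1.79%). The biological coefficient of variation common to all genes, estimated with edgeR as the spread beyond counting, was 0.0993. Pearson's r of log2 CPM across these genes was 0.982 to 0.994 for the 6 pairs, and 0.989 to 0.994 with Xist and the 4 Y genes left out. These correlations are across genes of whole libraries and share each library's preparation.

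**Figure D4:**
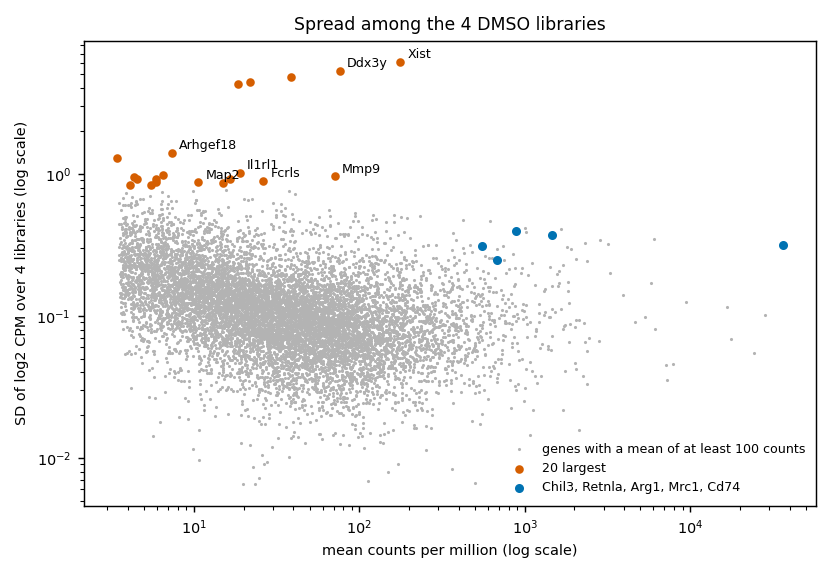
SD of log2 CPM (prior count 2) over the 4 DMSO libraries against mean CPM, both on log scales, for the 9690 genes that averaged 100 counts or more; orange marks the 20 genes with the largest SD and blue the 5 markers. Xist and the 4 Y genes stand alone at the top, and the 5 markers lie above most genes of their own level.

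The largest spread separated DMSO4 from the rest. Xist, the RNA that silences an X chromosome in female cells, had 0.0946, 0, 0.227 and 706 CPM, and the Y-linked genes Ddx3y (101, 100, 103 and 0 CPM), Eif2s3y, Uty and Kdm5d were counted in DMSO1 to DMSO3 only. DMSO4 thus carried the transcripts of a female donor and the other 3 those of male donors. After these 5 genes came Arhgef18, a guanine nucleotide exchange factor, with 1.56, 4.02, 6.88 and 17.0 CPM, and Eya1, with 1.04, 1.92, 1.85 and 8.87 CPM, both highest in DMSO4, as was the neuronal microtubule protein Map2 at 22.3 CPM against 6.24 to 7.62 CPM. Sex and donor cannot be told apart here, since 1 library was female.

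A second set of uneven genes was highest in DMSO1. Il1rl1, the receptor of IL-33, had 42.6, 9.88, 9.15 and 14.2 CPM, the lectin Clec4n (Dectin-2) 14.1, 4.57, 2.82 and 4.45 CPM, and the Fc receptor-like gene Fcrls 54.0, 15.3, 13.9 and 21.6 CPM. Mmp9, gelatinase B, spread most among the genes above 50 CPM that are not sex-linked, with 137, 67.7, 27.5 and 52.0 CPM, a span of 4.99-fold. Uhrf1, Rrm2 and Ceacam10 were highest in DMSO1 and lowest in DMSO3, and Tnfrsf11b, osteoprotegerin, was lowest in DMSO1 at 2.13 CPM against 5.55 to 8.17 CPM. Gm12892, Gm12164 and Gm10180 are processed pseudogenes. Of their words 45.2%, 62.4% and 100% recur in other genes, so their counts are uncertain. At the other end, the 10 most even genes included Rpl7a (501 to 506 CPM), a ribosomal protein, the mitochondrial ribosomal protein Mrps25 (23.3 to 23.5 CPM, with 69.8% of its exon bases opposite those of Nr2c2) and the kinase Mapkapk2 (171 to 174 CPM), with CVs under 1%, below what counting alone gives for them, as some of 9690 genes will be when ranked by spread.

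The 5 markers and the median IL-4 gene had larger CVs than the median of all genes on, while Egr2, Klf4, Cd300ld and Mmp12 of the same list had smaller ones. Of the 1713 genes that were high, 41 had a CV over 20% (2.39%), with a median CV of 5.33%. Chil3 (23.8%), Retnla (26.5%), Arg1 (21.7%) and Cd74 (23.4%) were among those 41, and Mrc1 stood at 16.9%. The median CV of the genes on was 17.5% in the IL-4 list, 29.2% among chemokines, 26.1% among proliferation genes and 19.7% among C-type lectins, against 7.82% over all genes on. It was 5.44% in the lysosome list, 5.09% in the oxidase list and 7.12% in the PARP list. These lists and genes differ in level. Over all genes the median CV was 16.2% at 1 to 10 CPM, 6.84% at 10 to 100, 5.40% at 100 to 1000 and 6.27% from 1000 CPM. The median member, taken over members on or not, had 136 CPM in the IL-4, 1.74 in the chemokine and 6.43 in the proliferation list. It had 27.8 CPM in the C-type lectin, 220 in the oxidase, 33.9 in the PARP and 797 in the lysosome list. Within the IL-4 list 17 of 30 genes on were highest in DMSO1 and none in DMSO2, against 29.5% and 25.2% of all genes on.

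**Figure D5:**
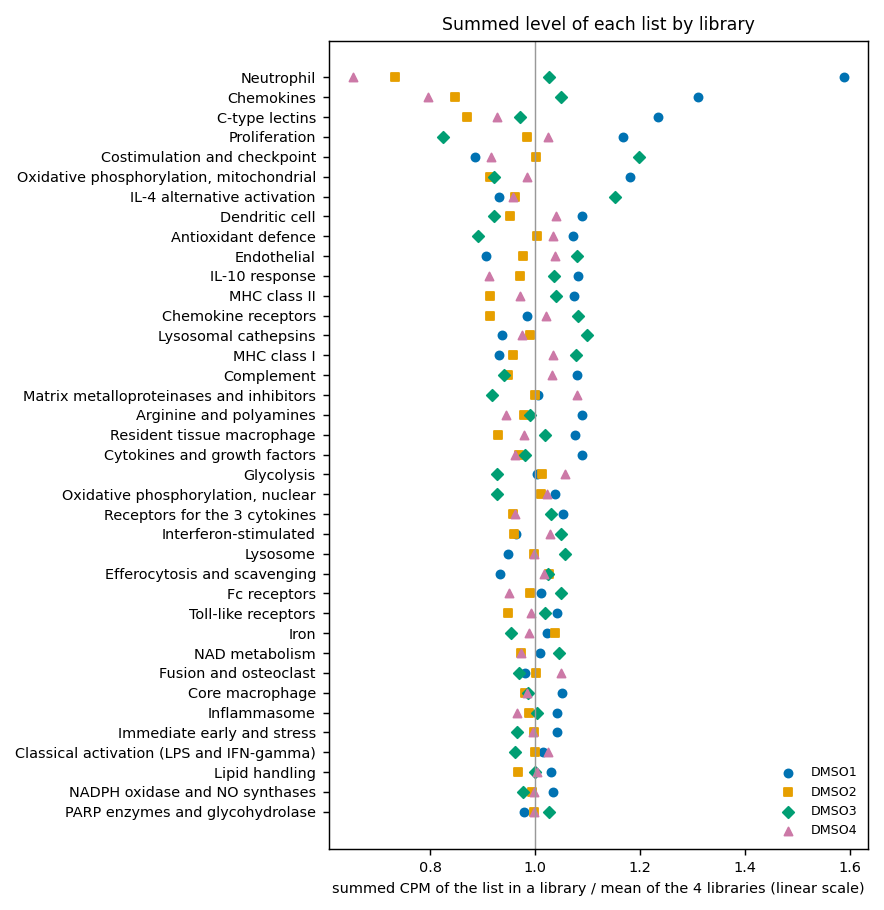
Summed CPM of each list in a library divided by the mean of the 4 libraries (linear scale), lists with a mean sum of at least 10 CPM ordered by CV; symbols are the 4 DMSO libraries. DMSO1 lies to the right for neutrophil, chemokine, C-type lectin, proliferation and mitochondrial genes. DMSO3 does so for checkpoint and cathepsin genes and, through Chil3, for IL-4 genes, and the lists at the bottom hardly spread.

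By summed level the PARP (CV 1.99%), oxidase (2.39%), lipid (2.56%) and classical activation (2.75%) lists differed least between libraries. Slc7a11 made up 67.4% of the classical sum, which was 69.3 ± 4.35 CPM without it, and the median CV of the classical genes on was 18.8%. Cd36 made up 39.3% of the lipid sum, which was 11085 ± 503 CPM without it. The chemokine list differed most of the program lists, with 2769 CPM in DMSO1 and 1681 to 2218 CPM in the others. DMSO1 was also highest in the C-type lectin list (2724 CPM against 1919 to 2142), the mitochondrially encoded list (13469 CPM against 10423 to 11220) and the proliferation list (595 CPM against 420 to 522), and had the lowest total count and the highest neutrophil and erythroid sums. Whether these go together was not tested. DMSO3 was highest in the IL-4 list (83688 CPM against 67577 to 69843). Without Chil3 the sum of that list was 36148 ± 1828 CPM and DMSO3 was the lowest library. Of the 30 IL-4 genes on 7 were highest and 12 lowest in DMSO3, against 17.5% and 36.5% of all genes on. Counted gene by gene, DMSO1 was at least 1.5-fold above the mean of the other 3 for 127 of 9690 genes and as far below for 133, DMSO3 for 35 and 147, DMSO4 for 83 and 50, and DMSO2 for 27 and 33. The genes so raised in DMSO2 were short, with a median of 1831 exon bases against 4667 for all genes tested, and included the ribosomal proteins Rps29 (133, 180, 92.3 and 82.7 CPM) and Rpl38 (106, 126, 64.8 and 69.9 CPM), which were named after their values were seen. The part of transcript length in this was not tested.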

How the data were processed

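Total RNA of the 4 DMSO cultures was made into stranded mRNA libraries and read single-end. The authors aligned the reads with STAR 2.5.2b to GRCm38.p5 and deposited raw counts of reads per gene; which of STAR's strand columns was deposited is not given in the sources used here, so reads of overlapping genes on opposite strands may be mixed. STAR counts uniquely mapped reads, which lowers near-identical copies. From the deposited counts, CPM used the library's total (21146291 to 31446849) and TPM the union exon length, both in Python 3.11.15 and R 4.3.3. Counts on identifiers without a name in the annotation were 0.113% to 0.136%. The common biological CV came from edgeR 4.0.16, and DESeq2 1.42.0 gave alternative scaling. The code was tested on simulated data.

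Genes named were the 5 markers, the 20 highest by CPM and by TPM, the leading 3 to 6 members of each list by TPM, members at the floor, genes the study discusses, and the 20 with the largest and 10 with the smallest SD of log2 CPM. Other list members named were chosen after their values were seen. A few genes that the rule names are not reported here. Members and the 46 gene lists were chosen with earlier results of these data known, and no test was run. The 8 olaparib and MNA libraries were not used here. Alternatives were other thresholds, scalings and lengths, and leaving out each library.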

Additional observations from a re-analysis of the deposited data

Results flagged for a closer look

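A library was singled out where the gap between the highest or lowest value and its nearest neighbour, divided by the whole range of the 4 libraries, passed Dixon's 95% limit for 4 samples. Of 246 items (200 named genes above the floor, 45 list sums and the total counts) 27 did so, 14 of them in DMSO1 and 10 in DMSO4. Chance alone marks about 1 in 20 groups, and genes named for a large SD are more likely to be marked.

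In DMSO1 the monocyte and macrophage genes Lyz2 (2554 CPM against 1649 to 1754, gap over range 0.8835), Cd300ld (603 against 536 to 540 CPM, 0.9338), the chemokines Ccl9 (0.9084) and Ccl2 (0.9107) and the iron exporter Slc40a1 (0.8932) stood highest, as did the uneven genes Il1rl1 (0.8474) and Clec4n (0.8446). The granulocyte gene S100a9 (0.9731) and the haemoglobin chain Hba-a1 (0.9639) were highest there too, and Rpl7a (0.8534) only within a range of 501 to 506 CPM. Among list sums DMSO1 was highest for core macrophage genes (17484 CPM against 16327 to 16407, 0.931), for cytokines and growth factors (1294 against 1145 to 1166 CPM, 0.8567) and for erythroid genes (0.8781), and lowest for efferocytosis and scavenging (10600 CPM against 11551 to 11646, 0.9089).

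In DMSO4 Xist stood highest (0.9997) and the Y-linked Ddx3y (0.9705) and Uty (0.9148) lowest. Eya1 (0.8876), Map2 (0.9141), Siglecf (6.96 against 3.81 to 4.22 CPM, 0.8696) and with it the eosinophil sum (0.8889), Oas1a (58 against 44.3 to 46.3 CPM, 0.8569) and Tnks2 (150 against 143 to 144 CPM, 0.9091) were highest there, and Arg2 was lowest (0.318 against 0.698 to 0.714 CPM, 0.9611). In DMSO3 the IL-4 list sum (0.8593) and Sirpa (1466 against 1344 to 1365 CPM, 0.8298) were highest, and in DMSO2 Eef1a1 was lowest (7472 against 7924 to 7989 CPM, 0.8743). Without Chil3 the IL-4 list sum was lowest in DMSO3.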

How the results depend on the processing

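Scaling with edgeR or DESeq2 factors moved the mean of Chil3 to 36613 and 36604 CPM, and leaving out each library gave 32285 (without DMSO3) to 38455 CPM. Shared out by TPM in place of counts, the top 10 genes held 21.2% and 180.5 genes held 50%, since short messengers gain weight. By counts, the top 10 held 15.7% to 16.5% and 436 to 449 genes held 50% without each library in turn. The common biological CV was 0.111 with no filter on low counts, and 0.0868 (without DMSO1) to 0.112 (without DMSO2) without each library. On genes numbered 11411 at 0.5 CPM, 8936 at 5 CPM, 10865 at 1 TPM and 10767 to 10831 without each library, and of the 631 program members 498, 421, 487 and 485 to 486 were on. At 5 CPM 10 of 46 lists changed their count of genes on by more than 1.5 times, among them classical activation (4), chemokines (8), resident macrophage genes (7) and proliferation (11). The lowest pairwise r rose to 0.989 without Xist and the 4 Y genes, or without DMSO4; this check and leaving libraries out of the list sums were chosen after seeing the data. The limit of 3 counts is 0.142 CPM in DMSO1. No paired analysis was possible because the libraries of only 1 group were analysed.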
